A study of Mus musculus with 6 samples.

Results

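The 10 genes of the Myc, Max and Mxd network were followed in MLE15 cells in which the lung transcription factor Nkx2-1 had been reduced. The members were Myc, Mycn, Mycl, Max, Mxd1, Mxi1, Mxd3, Mxd4, Mnt and Mlx, chosen by gene symbol out of 19938 genes that the array measured under a single symbol. Each member had 1 transcript cluster, the set of probes that the array summarises into 1 value. MLE15 cells, of the mouse lung epithelium, derive from lung tumors of transgenic mice in which the human surfactant protein C promoter drove the SV40 large T antigen, so all lines compared here share that oncogene. Nkx2-1 shRNA lines (n = 3) carried a mixture of lentiviral pLKO.1 shRNAs against Nkx2-1, and Empty vector lines (n = 3) carried the control virus. All were selected with puromycin. The labels give 48 h for every sample, while the methods describe stable lines from independent transductions, and 1 Affymetrix Mouse Gene 1.0 ST array was hybridized per line.

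The proteins of this network are basic helix-loop-helix leucine-zipper factors that bind the E-box motif CACGTG as pairs. Max is the common partner. Bound to Myc, Mycn or Mycl it recruits histone acetyltransferase complexes and genes for growth and metabolism are transcribed, whereas bound to Mxd1, Mxi1, Mxd3, Mxd4 or Mnt it brings the Sin3 corepressor and histone deacetylases to the same motif. Mlx is a second partner, which pairs with the glucose-sensing factors Mlxip and Mlxipl and also with Mxd1, Mxd4 and Mnt. In the developing lung, Mycn is known for its expression in the growing distal epithelium, and Mxd1 is known from several tissues as a gene that comes on when cells leave the cycle and differentiate.

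Nkx2-1 was lower in every Nkx2-1 shRNA line. It was at 7.91, 7.98 and 7.83 on the log2 scale in the Nkx2-1 shRNA lines, against 8.61, 8.61 and 8.59 in the Empty vector lines, which left 61.8% of the Empty vector level (log2 fold change -0.69, SE 0.076, adjusted p = 0.00155, exact permutation p = 0.1, the smallest that 3 against 3 lines can give). Array medians were 5.10 to 5.14 in Nkx2-1 shRNA lines and 5.18 to 5.21 in Empty vector lines, and arrays correlated at 0.991 to 0.994 within a group and 0.979 to 0.983 between groups. Of 9 lung epithelium markers, Nkx2-1 among them, 1 rose and 4 fell, Nkx2-1 being 1 of the 4, where 7.61% of all transcript clusters rose and 9.24% fell. Sftpc, the surfactant protein C gene, was below the background limit in all Nkx2-1 shRNA lines (4.10, 4.29 and 3.85), against 7.22, 7.92 and 8.05 in Empty vector lines. None of 5 fibroblast, 4 leukocyte and 3 endothelium markers passed the test, and 2, 2 and 3 of them were below the background limit in both groups. That limit, 4.35 on the log2 scale, lay at the 95th percentile over 1250 transcript clusters for odorant, vomeronasal and taste receptors. The arrays measure all RNA of a line together, so fewer cells with a transcript and less of it per cell cannot be told apart.

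All 10 network genes were above the background limit in both groups, and 8 passed the test (limma, Benjamini-Hochberg adjusted p under 0.05 over all 35557 transcript clusters), where 16.8% of all transcript clusters did. Myc, Mxd1, Mxi1 and Mxd4 rose (4 of 10, against 7.61% of all transcript clusters), and Mycn, Max, Mxd3 and Mlx fell (4 of 10, against 9.24%). Mycl and Mnt did not pass. Among the 23139 transcript clusters above background the shares were 24.3% called, 11.2% higher and 13.1% lower. The groups did not overlap for the same 8 members, which held for 34.9% of all transcript clusters (15.1% higher and 19.8% lower). The study used a stricter threshold, which asked for more than 0.6 on the log2 scale and an adjusted p below 0.0005. In the limma fit over all 35557 transcript clusters, that threshold was reached by none of the 10 genes and by 1.26% of all transcript clusters. The absence of members holds for that fit only. With only transcript clusters of 1 gene symbol in the fit, Mxi1, Myc, Mxd1, Mycn, Max and Mlx reached it. The paper lists more genes at its threshold than the 448 transcript clusters that reached it in the fit over all. Over all calls 45.2% were higher in Nkx2-1 shRNA lines, and 59.5% after each array was centred on its median, while all 8 member calls kept their direction under both scalings.

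**Figure D1:**
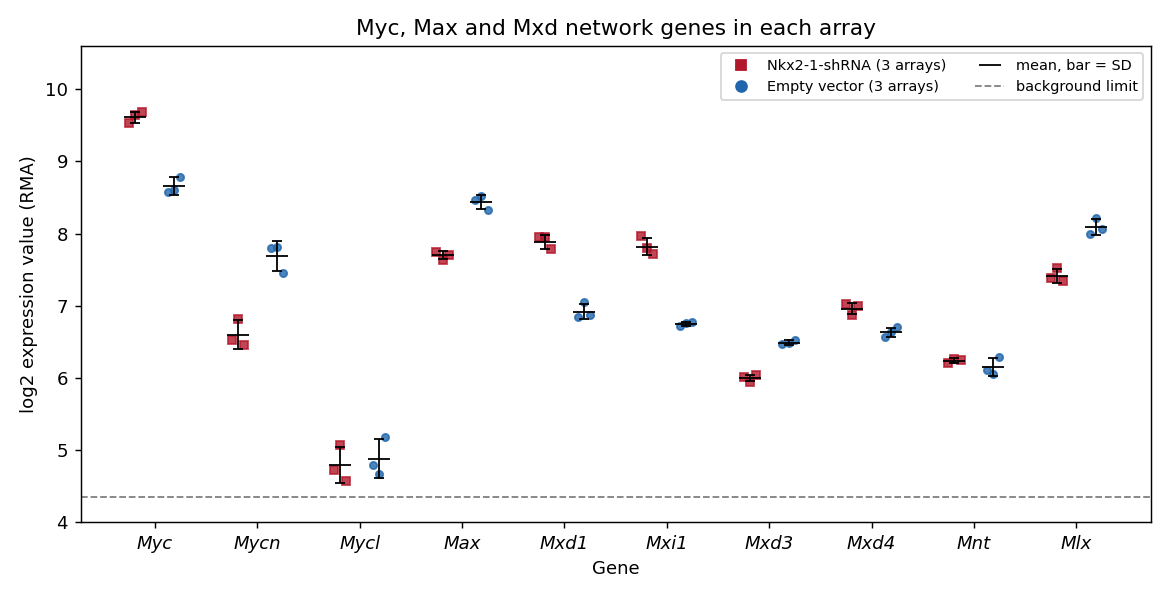
Log2 expression values (y axis, RMA) of the 10 network genes in the 3 Nkx2-1 shRNA arrays (red squares) and the 3 Empty vector arrays (blue circles), with group means and SD bars in black and the background limit of 4.35 as a dashed line. The groups are apart for 8 genes and overlap for Mycl and Mnt.

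Among the activators, Myc and Mycn moved in opposite directions. Myc, the family member that most dividing cells use, was at 9.53, 9.64 and 9.68 in Nkx2-1 shRNA lines, against 8.58, 8.61 and 8.79 in Empty vector lines (log2 values, chromosome 15). Every Nkx2-1 shRNA line lay above every Empty vector line, and the gap between the groups was wider than the spread within either. The mean was 9.61 ± 0.076 in Nkx2-1 shRNA lines and 8.66 ± 0.12 in Empty vector lines (SD, n = 3 each), so Myc rose to 194% of the Empty vector level (log2 fold change 0.95, SE 0.092, 95% interval 0.74 to 1.17, adjusted p = 9.4e-04).

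Mycn, the paralog known from embryonic lung epithelium and from human neuroblastoma, had log2 values of 6.53, 6.82 and 6.45 in Nkx2-1 shRNA lines, against 7.80, 7.82 and 7.45 in Empty vector lines (chromosome 12). The lowest Empty vector line was still above the highest Nkx2-1 shRNA line, and the spread was wider than for Myc in both groups. Mycn fell to 46.8% of the Empty vector level, with means of 6.60 ± 0.20 in Nkx2-1 shRNA and 7.69 ± 0.21 in Empty vector lines (log2 fold change -1.09, SE 0.14, 95% interval -1.44 to -0.75, adjusted p = 0.00325). Its adjusted p was 0.0546 when the variances of the groups were allowed to differ, so that call was lost.

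Mycl, the paralog first found amplified in human small cell lung cancer, stood closest to the background limit. Its log2 values were 4.73, 5.07 and 4.57 in Nkx2-1 shRNA lines and 4.79, 4.67 and 5.18 in Empty vector lines (chromosome 4). The groups overlapped, and in each of them 1 line stood above the other 2. The log2 fold change was -0.092 (SE 0.18, 95% interval -0.51 to 0.33, adjusted p = 0.794), an interval that leaves room for a moderate change in either direction.

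Max, the partner with which Myc and Mxd proteins bind the E-box, was lower in all Nkx2-1 shRNA lines. Its log2 values were 7.75, 7.64 and 7.70 in Nkx2-1 shRNA lines, against 8.47, 8.52 and 8.32 in Empty vector lines (chromosome 12). Both groups were narrow and well apart. Max fell to 59.9% of the Empty vector level, with means of 7.70 ± 0.055 in Nkx2-1 shRNA and 8.44 ± 0.10 in Empty vector lines (log2 fold change -0.74, SE 0.086, 95% interval -0.94 to -0.54, adjusted p = 0.00195).

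Mlx, the partner of the glucose-sensing factors, also fell. Its log2 values were 7.38, 7.52 and 7.34 in Nkx2-1 shRNA lines, against 7.99, 8.21 and 8.06 in Empty vector lines (chromosome 11). No line of one group reached the range of the other. The level was 62.7% of that in Empty vector lines, with means of 7.41 ± 0.097 in Nkx2-1 shRNA and 8.09 ± 0.11 in Empty vector lines (log2 fold change -0.67, SE 0.095, 95% interval -0.90 to -0.45, adjusted p = 0.00426).

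The start sites of Max and Mlx are shown because both shared partners fell and both carry the motif that the network itself binds. Each window holds 250 bases before and 50 after the RefSeq start site (GRCm38.p6), written 5′ to 3′ on the strand of the gene, with CACGTG in capitals. The motif reads the same on both strands. The Max window is chr12:76962199-76962498 on the minus strand, and the Mlx window is chr11:101087040-101087339 on the plus strand.
Max: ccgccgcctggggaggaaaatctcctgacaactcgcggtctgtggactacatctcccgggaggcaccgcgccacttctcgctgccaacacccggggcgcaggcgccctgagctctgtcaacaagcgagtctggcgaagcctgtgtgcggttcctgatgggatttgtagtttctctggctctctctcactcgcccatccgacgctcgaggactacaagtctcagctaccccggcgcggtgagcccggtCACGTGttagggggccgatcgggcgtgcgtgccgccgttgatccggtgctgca
Mlx: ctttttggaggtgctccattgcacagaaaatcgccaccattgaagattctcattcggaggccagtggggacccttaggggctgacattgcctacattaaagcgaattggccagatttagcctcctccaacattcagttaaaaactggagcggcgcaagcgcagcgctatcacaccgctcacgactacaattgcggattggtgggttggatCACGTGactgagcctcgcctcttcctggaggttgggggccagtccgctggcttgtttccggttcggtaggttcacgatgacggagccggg
In Max the motif begins at position -3 and spans the start site, and in Mlx it lies at positions -40 to -35. Of 32851 promoter windows of this length in the RefSeq table, 7.15% hold CACGTG. A match is a description of these letters and not a measured binding site.

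The repressors split, with 3 of 5 higher, 1 lower and 1 not called. Mxi1, a tumor suppressor candidate of the Mxd family, showed the largest positive log2 fold change of the 10 genes. It was at 7.96, 7.80 and 7.71 in Nkx2-1 shRNA lines, against 6.72, 6.76 and 6.77 in Empty vector lines (log2 values, chromosome 19). The Empty vector lines were almost level, and every Nkx2-1 shRNA line was far above them. Mxi1 rose to 210% of the Empty vector level, with means of 7.82 ± 0.12 in Nkx2-1 shRNA and 6.75 ± 0.024 in Empty vector lines (log2 fold change 1.07, SE 0.088, 95% interval 0.86 to 1.28, adjusted p = 5.3e-04). The adjusted p was 0.0604 when the variances were allowed to differ.

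Mxd1, the member tied to differentiation, had log2 values of 7.95, 7.95 and 7.78 in Nkx2-1 shRNA lines, against 6.85, 7.05 and 6.87 in Empty vector lines (chromosome 6). The groups were clearly apart, with similar spreads. Mxd1 rose to 196% of the Empty vector level, with means of 7.89 ± 0.097 in Nkx2-1 shRNA and 6.92 ± 0.11 in Empty vector lines (log2 fold change 0.97, SE 0.094, 95% interval 0.75 to 1.19, adjusted p = 9.5e-04).

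Mxd4 rose by less, at 7.03, 6.87 and 6.99 in Nkx2-1 shRNA lines, against 6.57, 6.63 and 6.70 in Empty vector lines (log2 values, chromosome 5). The lowest Nkx2-1 shRNA line stood only a little above the highest Empty vector line. The means were 6.96 ± 0.081 in Nkx2-1 shRNA and 6.63 ± 0.064 in Empty vector lines, or 126% of the Empty vector level (log2 fold change 0.33, SE 0.082, 95% interval 0.13 to 0.53, adjusted p = 0.0365). This call was lost in 7 of 17 alternatives, with adjusted p-values between 0.0149 and 0.134 over all of them. Among the 7 were the fits without Nkx2-1 shRNA replicate 1, 2 or 3 (0.134, 0.0548 and 0.111) and without Empty vector replicate 1 or 2 (0.101 and 0.092).

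Mxd3, the member of the family that is found in cycling cells, went the other way from the rest of the Mxd genes. Its log2 values were 6.01, 5.95 and 6.04 in Nkx2-1 shRNA lines, against 6.47, 6.48 and 6.53 in Empty vector lines (chromosome 13). Both groups were tight. Mxd3 fell to 71.0% of the Empty vector level, with means of 6.00 ± 0.046 in Nkx2-1 shRNA and 6.49 ± 0.031 in Empty vector lines (log2 fold change -0.49, SE 0.073, 95% interval -0.67 to -0.32, adjusted p = 0.00513).

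Mnt, the repressor that most cells make at a steady level, had log2 values of 6.20, 6.26 and 6.25 in Nkx2-1 shRNA lines and 6.11, 6.05 and 6.29 in Empty vector lines (chromosome 11). The Nkx2-1 shRNA lines lay within the range of the Empty vector lines. The log2 fold change was 0.087 (SE 0.089, 95% interval -0.13 to 0.30, adjusted p = 0.593).

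The motif CACGTG was also found upstream of Mxd4 and Mnt, whose windows are shown beside those of Max and Mlx because the 4 genes with the motif did not all move one way. The Mxd4 window is chr5:34187661-34187960 on the minus strand, and the Mnt window is chr11:74830674-74830973 on the plus strand, with CACGTG in capitals as before.
Mxd4: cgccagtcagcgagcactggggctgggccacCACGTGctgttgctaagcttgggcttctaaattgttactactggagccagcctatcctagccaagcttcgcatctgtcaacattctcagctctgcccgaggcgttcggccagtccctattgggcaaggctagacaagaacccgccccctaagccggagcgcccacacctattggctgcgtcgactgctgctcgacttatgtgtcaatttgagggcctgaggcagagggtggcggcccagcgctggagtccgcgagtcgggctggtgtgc
Mnt: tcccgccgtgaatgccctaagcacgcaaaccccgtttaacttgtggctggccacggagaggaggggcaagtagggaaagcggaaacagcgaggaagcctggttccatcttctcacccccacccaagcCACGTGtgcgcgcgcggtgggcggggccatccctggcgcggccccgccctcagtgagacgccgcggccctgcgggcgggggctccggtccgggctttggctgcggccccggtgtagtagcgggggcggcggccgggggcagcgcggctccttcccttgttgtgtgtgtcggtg
The motif begins at position -219 in Mxd4 and at position -123 in Mnt. Of the 9 members with a window in the RefSeq table, 4 hold the motif: Max and Mlx fell, Mxd4 rose and Mnt did not pass. Counted per gene in the same way, above background, it was held by 11.3% of genes that rose, 12.4% that fell and 11.1% not called. The other 5 are Mycn and Mxd3, which fell, Mxd1 and Mxi1, which rose, and Mycl. Within these windows, the motif closest to the start site was that of Max and the next that of Mlx. It lay farther upstream in Mxd4 and in Mnt. These places were read with the changes known, and a link of place and direction was not tested.

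**Figure D2:**
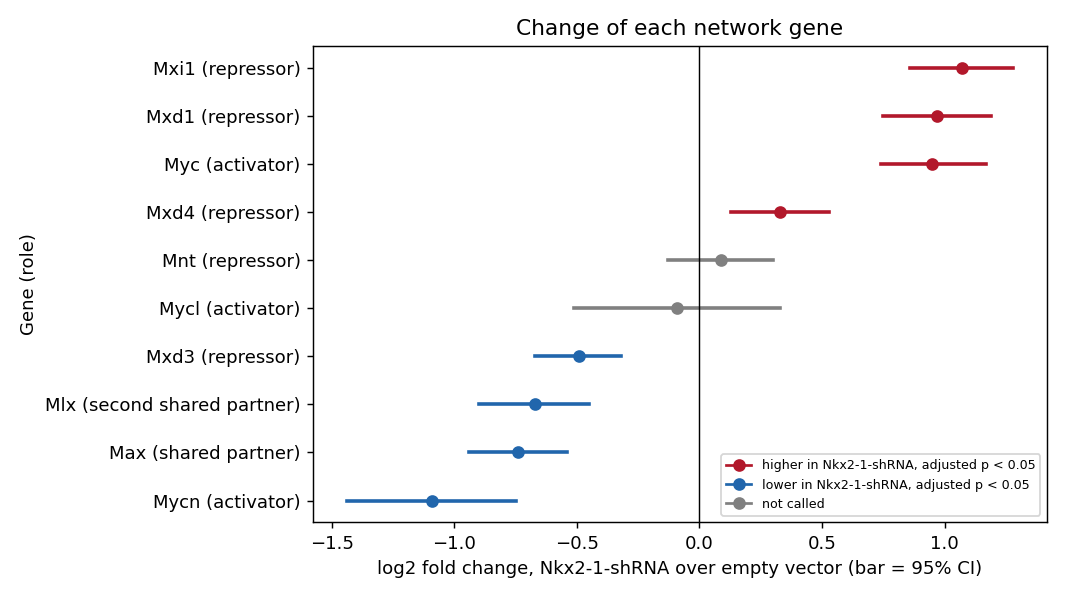
Log2 fold change of each network gene (x axis, Nkx2-1 shRNA over Empty vector) with its 95% interval from limma, ordered by the change, with the role of the gene in brackets. Intervals run from Mycn (-1.44 to -0.75) at the bottom to Mxi1 (0.86 to 1.28) at the top, and those of Mnt and Mycl cross 0.

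Because probes of different genes differ in brightness, levels were not compared between genes, and the balance of the network was read only as the shift of a within-array difference between the groups. The log2 difference Mycn minus Myc was -3.00, -2.81 and -3.23 in Nkx2-1 shRNA lines, against -0.77, -0.79 and -1.34 in Empty vector lines. This shift of -2.05 is a 4.13-fold change of Mycn relative to Myc, and no line of one group came near the other. For Max minus Myc the shift was -1.69 (3.23-fold), with -1.92 ± 0.12 in Nkx2-1 shRNA and -0.22 ± 0.21 in Empty vector lines (SD, n = 3 each). At the RNA level Myc thus rose while its partner Max fell, and the arrays do not measure the proteins or their pairing. Mxd1 minus Max shifted by 1.71 (3.27-fold), with 0.20 ± 0.11 in Nkx2-1 shRNA and -1.51 ± 0.088 in Empty vector lines. By contrast Mxd1 and Myc rose by like amounts, and Mxd1 minus Myc was -1.72 ± 0.16 in Nkx2-1 shRNA and -1.74 ± 0.18 in Empty vector lines (shift 0.019, 1.01-fold). The exact permutation test, two-sided, gave p = 0.1 for the first 3 pairs, the smallest possible here, and p = 0.8 for Mxd1 minus Myc. Benjamini-Hochberg adjustment of these over the 4 pairs gave 0.133 and 0.8. In the first 3 pairs the genes moved in opposite directions with groups apart, so that p was fixed by their values and adds no support.

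Mycn, Mxd3 and Mxd4 are on the list of predicted targets of the microRNA miR-200c that accompanies the study, which is why its mature sequence is shown (RefSeq, GRCm38.p6, chr6:124718324-124718346 on the minus strand), with the seed, bases 2 to 8, in capitals.
mmu-miR-200c-3p: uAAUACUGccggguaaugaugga
Mycn and Mxd3 fell and Mxd4 rose in the Nkx2-1 shRNA lines. The microRNA arrays were not analysed here, and a part of miR-200c in these values was not tested.

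Neighbouring genes on the chromosome were set beside each member, 10 on each side, all above background. Of all transcript clusters above background, 11.2% were higher and 13.1% lower. For Max the neighbours moved as well. Of its 20 neighbours 10 fell and 1 passed as higher, 18 had a log2 fold change below 0, and their median was -0.41. They include Arg2, the mitochondrial arginase, at -2.79 (adjusted p = 9.2e-05). Max lay 0.33 below that median on the log2 scale, and whether the region as a whole contributes to the Max value was not tested. Mycn is on the same chromosome, but its neighbours had a median of -0.0021, with 3 higher and 4 lower, so the fall of Mycn stood 1.09 below its surroundings.

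In the main fit every called member had a neighbour median of its own sign, and after Max those of Mxd4 and Mxd3 were the farthest from 0. The medians around Mycn and Mlx were close to 0 and did not keep their sign. Over the alternatives they ran from -0.021 to 0.078 for Mycn and from -0.036 to 0.056 for Mlx. The 20 neighbours of Mxd3 had a median of -0.15 with 4 lower, none higher and 16 below 0, and those of Mxd4 had a median of 0.22 with 7 higher and 1 lower. Mxd4 differed from the median around it by only 0.11 on the log2 scale. For Myc, Mxd1 and Mxi1 the medians were 0.11, 0.093 and 0.11, and the members exceeded them by 0.85, 0.88 and 0.96. Around Myc, Mxd1 and Mxi1, 5, 4 and 7 neighbours were higher and 1, 2 and 1 lower. Mlx lay 0.65 below a median of -0.024, with 3 neighbours higher and 4 lower. Mycl and Mnt, which were not called, had neighbour medians of 0.073 and -0.02.

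**Figure D3:**
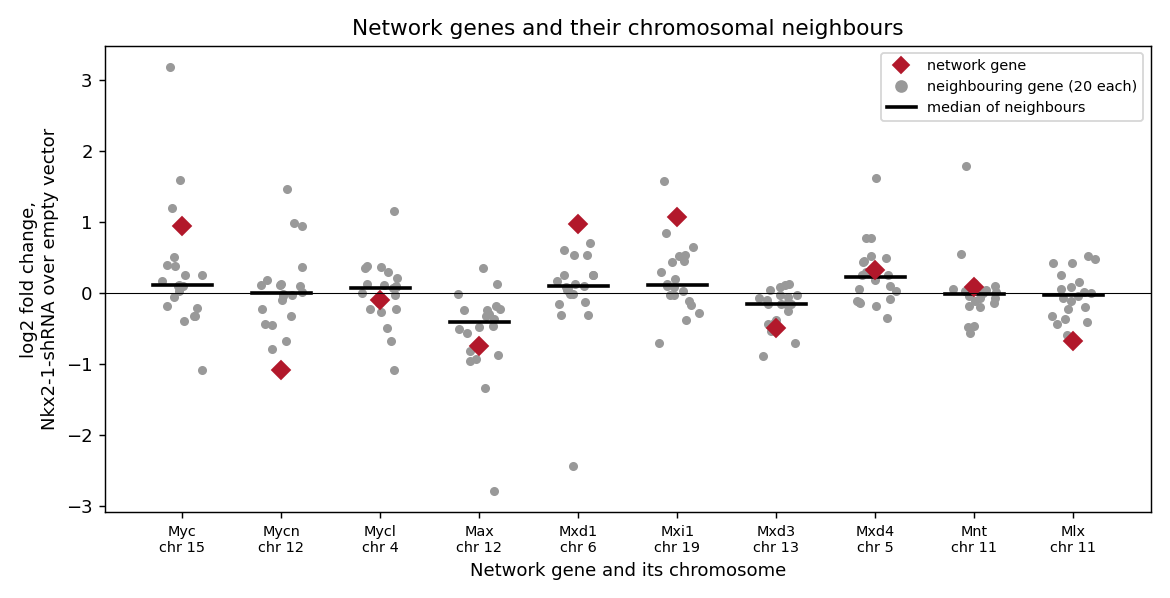
Log2 fold change (y axis, Nkx2-1 shRNA over Empty vector) of each network gene (red diamond) and of its 20 nearest measured genes on the chromosome (grey points), with the median of the neighbours as a black line. The neighbours of Max lie mostly below 0 (median -0.41), whereas those of Mycn are centred near 0.

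Cofactors through which the network acts were counted next, from lists of known components and described targets. The lists were chosen with earlier results of these data known, so their shares are a description only. The counts stand beside the shares over all transcript clusters, 7.61% higher and 9.24% lower (11.2% and 13.1% of those above background), and beside a median log2 fold change of -0.029 over all. With any 1 array left out, fewer transcript clusters were called over the whole array too. Of 23 measured genes for Myc cofactors and turnover, 3 (13%) rose and 9 (39.1%) fell, with a median of -0.092, or -0.012 after median centring. The calls numbered 0 to 2 higher and 3 to 6 lower with 1 array left out, and 5 lower with the methods' test or after median centring. The most changed was Trrap, the scaffold through which Myc recruits acetyltransferases, with log2 values of 7.88, 7.82 and 7.99 in Nkx2-1 shRNA lines, against 9.20, 9.03 and 9.15 in Empty vector lines. The groups were widely apart, and Trrap fell to 42.7% of the Empty vector level (log2 fold change -1.23, adjusted p = 3.1e-04). Aurka, a kinase that protects Mycn protein from degradation, fell as well (-0.56, adjusted p = 0.00288), as did Skp2, a ubiquitin ligase subunit that acts on Myc (-0.52, adjusted p = 0.019), whereas Fbxo32, another ligase subunit, rose (0.48, adjusted p = 0.0118). The Skp2 call was lost without Empty vector replicate 1 or 2 (adjusted p = 0.0604 and 0.0532), and that of Fbxo32 without Nkx2-1 shRNA replicate 1 (0.0516). Fbxw7, the ligase subunit best known for Myc turnover, was at -0.0078 (adjusted p = 0.969).

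The Sin3 corepressor, which the Mxd proteins recruit, had 2 of 17 measured genes higher (11.8%) and 3 lower (17.6%), shares near those of all transcript clusters above background (median -0.06, or 0.021 after median centring). With 1 array left out 2 were higher and 1 to 2 lower. Sap30, a subunit of the complex, rose (log2 fold change 1.02, adjusted p = 5.2e-04), and so did Sinhcaf (0.48, adjusted p = 0.0127). The deacetylases Hdac1 (-0.57, adjusted p = 0.00339) and Hdac2 (-0.50, adjusted p = 0.0159) fell. The scaffolds Sin3a (-0.17, adjusted p = 0.347) and Sin3b (-0.24, adjusted p = 0.111) did not pass. Of 12 other E-box factors of the same structural class 2 (16.7%) rose and 1 (8.33%) fell (median 0.16). Mitf (0.79, adjusted p = 9.1e-04) and Tfeb (0.41, adjusted p = 0.0153), regulators of lysosomal genes, were higher, although the Tfeb call was lost without Nkx2-1 shRNA replicate 1, 2 or 3 (adjusted p = 0.0643, 0.0506 and 0.0518). Mlxip, a partner of Mlx, was lower (-0.31, adjusted p = 0.0392), a call lost in 10 of 17 alternatives, among them each of the 6 that left out 1 array (adjusted p between 0.0554 and 0.12), and Mga, a further Max partner, was at 0.067 (adjusted p = 0.75).

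Described targets of the network did not move as a block. Of 31 measured genes for ribosome biogenesis, the best known Myc targets, 1 (3.23%) rose and 5 (16.1%) fell, or 19.4% called, near the 16.8% and 24.3% of all transcript clusters and of those above background (median -0.11, or -0.03 after median centring). With 1 array left out 0 to 1 were higher and 1 to 3 lower, and with unequal variances 0 were lower. Those that fell include Ddx21 (-0.51, adjusted p = 0.0057) and Bop1 (-0.49, adjusted p = 0.0131), a call lost without Nkx2-1 shRNA replicate 1 (0.0568). The nucleolar proteins Ncl (-0.18, adjusted p = 0.296) and Npm1 (-0.11, adjusted p = 0.405) did not pass. Of 23 measured metabolic and translation targets 9 (39.1%) rose and 3 (13%) fell, with a median of -0.13 (-0.046 after median centring) and a mean of 0.14, which differ in sign. The 9 became 4 without Nkx2-1 shRNA replicate 1, 2 or 3, 5 to 7 without 1 Empty vector array, 5 with the methods' test and 2 with unequal variances. Those that rose were led by Hk2, a hexokinase (1.82, or 354% of the Empty vector level, adjusted p = 1.2e-04), the glucose transporter Slc2a1 (1.32, adjusted p = 0.00217) and Mthfd2 of mitochondrial folate metabolism (0.96, adjusted p = 0.00275). The transferrin receptor Tfrc fell (-0.91, adjusted p = 0.00128), and the classic Myc target Odc1 was at -0.13 (adjusted p = 0.438). Of 14 cell-cycle targets 4 (28.6%) rose and 1 (7.14%) fell (median 0.039). With 1 array left out 2 to 3 were higher, with 2 without Nkx2-1 shRNA replicate 1 or 3 or Empty vector replicate 2 or 3, and the lower call was lost without Nkx2-1 shRNA replicate 1 or 2 or Empty vector replicate 1. Id2, an inhibitor of helix-loop-helix factors, rose to 215% of the Empty vector level (adjusted p = 6.2e-04), while Cdk4 was at -0.25 (adjusted p = 0.261).

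Among 13 measured genes that Myc is known to repress, 6 (46.2%) rose and 2 (15.4%) fell (median 0.38). Myc itself was higher in the Nkx2-1 shRNA lines. Cdkn1a, also on this list, was not matched to a transcript cluster of its own and is not counted. With 1 array left out 5 to 6 were higher and 1 to 2 lower. Ndrg1, a stress and hypoxia gene, was at 908% of the Empty vector level (log2 fold change 3.18, adjusted p = 2.8e-05), and it is also one of the chromosomal neighbours of Myc. Gadd45a, a growth arrest gene, was at 3.00 (adjusted p = 6.8e-05), the matrix protein Thbs1 at 2.91 (adjusted p = 4.2e-05) and the cell cycle inhibitor Cdkn2b at 1.21 (adjusted p = 6.2e-04). The 2 that fell, named after their values were seen, were Fth1, the ferritin heavy chain (-0.57, adjusted p = 0.0052), and Cebpa, a differentiation factor (-0.44, adjusted p = 0.0375). Of 12 targets of Mlx and its Mlxip and Mlxipl partners 3 (25%) rose and 1 (8.33%) fell (median 0.07, mean 0.45). Txnip, the arrestin-like gene that these factors induce with glucose, was at 719% of the Empty vector level (2.85, adjusted p = 1.6e-04) while Mlx was lower, and Arrdc4, its close relative, did not reach the background limit in either group.

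**Figure D4:**
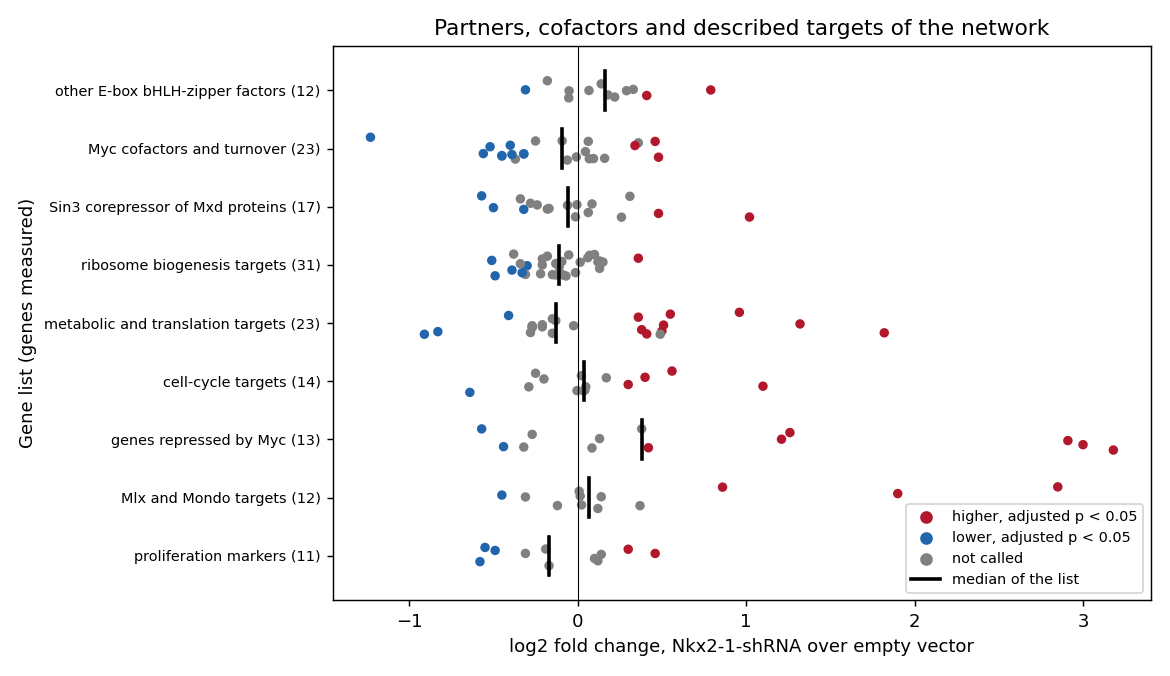
Log2 fold change (x axis, Nkx2-1 shRNA over Empty vector) of the measured genes in 9 lists of partners, cofactors, described targets and proliferation markers, one point per gene, red for higher and blue for lower calls (adjusted p under 0.05), with the median of each list as a black line. The medians lie between -0.17 and 0.38, and genes of the same list lie on both sides of 0.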

How the data were processed

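Gene expression in 6 MLE15 lines was read on Affymetrix Mouse Gene 1.0 ST arrays, 1 per line. Per the submitters' processing notes, the authors used Affymetrix Expression Console 1.1 with RMA (background correction, quantile normalization and probe summary), so the deposited values are log2 expression values, used as they stand. They hold 35557 transcript clusters per array, of which 21789 carried 1 gene symbol, 1621 several and 12147 were unnamed here. Where several transcript clusters shared a symbol, the brightest on average represented the gene.

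The test between groups was limma 3.58.1 under R 4.3.3 (lmFit, then eBayes, 4 residual and 2.86 prior degrees of freedom, no block), with Benjamini-Hochberg adjustment over all transcript clusters and a threshold of 0.05. The script was tested on simulated data. Alternatives were other t-tests, priors, array weights, scalings, filters, thresholds, a replicate block and leaving out each array. The members and gene lists were chosen with earlier results of these data known. All members were named, and of each list up to 4 of the most changed calls with groups apart and the 2 genes at its head, of which the text gives a selection. Genes were ordered along chromosomes and promoters read from RefSeq tables (GRCm38.p6), in which 9 of 10 members had a promoter, Myc being the other. Arrays give no count depth, so their number limits the precision.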

Additional observations from a re-analysis of the deposited data

How the results depend on the processing

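The 10 network genes had 4 higher and 4 lower calls. With a t-test for unequal variances there were 2 higher and 3 lower, since the calls of Mxi1, Mxd4 and Mycn were lost, and at the threshold of the study there were 0 higher and 0 lower, against 10518 transcript clusters at an unadjusted p under 0.05. The 0 calls at the study's threshold are those of the main fit. With only transcript clusters above background in the fit, Mxi1, Myc and Mxd1 passed it (adjusted p = 2.3e-04, 4.3e-04 and 4.3e-04). With only those of 1 gene symbol, Mycn, Max and Mlx passed as well (1.3e-04, 1.3e-04 and 3.8e-04), while Mxd3, Mxd4, Mnt and Mycl did not. Leaving out 1 array gave 3 to 4 higher and 4 lower. Over all transcript clusters 2705 were higher and 3284 lower, against 832 and 760 with unequal variances, 2024 and 1983 with the methods' t-test, and 1690 to 2225 and 1815 to 2750 with one array left out. In the 8 lists of partners, cofactors and targets 30 genes were higher and 25 lower. Higher genes numbered 14 with unequal variances, 7 at the study's threshold, 16 at an adjusted p under 0.01 and 17 to 25 with one array left out, and lower genes 7, 1, 8 and 10 to 18, with 15 after median centring. Nkx2-1 had an adjusted p of 0.055 with unequal variances.

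Signs changed only for values that were not called. With one array left out the log2 fold change of Mycl ran from -0.23 to 0.058, that of Mga from -0.0075 to 0.15, that of Fbxw7 from -0.064 to 0.046, and the shift of Mxd1 minus Myc from -0.075 to 0.11. Fbxw7 was at 0.015 with array weights, 0.074 after repeated quantile normalization and 0.073 after median centring, and Top2a at -0.33 as the mean of its transcript clusters, against 0.10. The causes were not tested.

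The replicate numbers were not taken as a pairing, since the deviations of same-numbered arrays correlated at 0.089, 0.218 and -0.055 and 3 of 6 arrays correlated best with their own number. With the replicate block 2269 transcript clusters were higher and 2775 lower, list genes called lower numbered 16, and Mxd4 was lost (adjusted p = 0.0764). The 3 lines per group limit the precision throughout. The limma p-values set each difference against the spread between these lines, moderated by that of all transcript clusters.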

Other observations

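Of 11 measured proliferation markers 2 (18.2%) were higher and 3 (27.3%) lower in the Nkx2-1 shRNA lines (median log2 fold change -0.17). Of all transcript clusters 7.61% were higher and 9.24% lower. The 2 higher calls became 0 without any 1 of the Nkx2-1 shRNA replicates and 1 without any 1 of the Empty vector replicates, and the 3 lower calls became 2 without any 1 of the Nkx2-1 shRNA replicates. The ribonucleotide reductase subunit Rrm2 (-0.58, adjusted p = 0.00378) and the mitotic kinases Plk1 (-0.55, adjusted p = 0.0143) and Bub1 (-0.49, adjusted p = 0.0149) fell, and the replication factor Mcm2 rose (0.46, adjusted p = 0.021). The Mcm2 call was lost without Nkx2-1 shRNA replicate 1, 2 or 3 (adjusted p = 0.0778, 0.0638 and 0.0637), with the methods' test (0.0583) and with unequal variances (0.182). That of Plk1 was lost without Nkx2-1 shRNA replicate 1 (0.0589), and that of Bub1 without replicate 2 or 3 (0.0564 and 0.0524). Mki67, a marker of all cycling cells, was at 0.14 (adjusted p = 0.538).

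Over all genes above background the E-box at the start site was about as frequent whatever the direction. CACGTG was in the promoter window of 11.3% of genes that rose, 12.4% of genes that fell and 11.1% of genes that were not called. Of 1214 genes with the motif 14.7% rose and 15.9% fell, against 14.7% and 14.3% of 9514 genes without it.

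Some neighbours of network genes were picked out after their values were seen. Pvt1, the noncoding gene next to Myc that is often amplified with it, was at -0.33 (adjusted p = 0.0566) while Myc rose. Ddx1, the neighbour of Mycn known for joint amplification in human neuroblastoma, was at -0.10 (adjusted p = 0.493) while Mycn fell. Near Max, Gpx2, an antioxidant enzyme of epithelia, fell by 1.34 on the log2 scale (adjusted p = 4.1e-04).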
